A study of Mus musculus with 30 samples.

Results

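The effect of adding an IL-17A-neutralising antibody to a GLP-1 receptor (GLP-1R) agonist was measured in adipose tissue macrophages (ATMs) as the difference between the ATM Combo and the ATM GLP1 groups, which hold 3 RNA-seq libraries each, 6 of the 30 in the series. Both groups came from Ob/Ob mice, which lack leptin and become obese, given lethal irradiation of 700 and then 400 cGy and rescued with bone marrow (BM) from Shp2 E76K/+;LysM-Cre+ donors (CD45.2+) mixed 1:1 with BM from wild-type Boy/J mice (CD45.1+). From 8 weeks after the transplant, both groups received beinaglutide, a GLP-1R agonist, at 3 mg/kg subcutaneously for 30 days, and the Combo group also received anti-IL-17A antibody, 200 µg per mouse by intraperitoneal injection 3 times a week. The labels give mice of about 12 to 14 weeks of age, whereas the methods of the study give another range for the recipients and a greater age for the donors. The libraries of a group, numbered 1 to 3 in their titles, were treated as separate mice (n = 3 per group), which the titles do not state. Cells were sorted from visceral adipose tissue on F4/80, a macrophage surface protein. The sort did not separate mutant donor cells, wild-type competitor cells and macrophages of the irradiated host that survived, so each library is a mixture of whatever the gate held. Of the other ATM groups, Vehicle (mutant marrow, no drug) and IL17Ab (mutant marrow, antibody only) give the antibody effect without the agonist, and WT is a group of C57BL/6 mice without drug, whose marrow graft the sources used here do not give in 1 way (mutant marrow in the protocols, wild-type marrow in a comparison of the study). The question was what the antibody added to the macrophage transcriptome of mice already on the agonist.

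IL-17A is a cytokine made mainly by T helper 17 cells, gamma delta T cells and innate lymphoid cells. It binds a receptor of IL-17RA and IL-17RC, and the adaptor Act1 (gene Traf3ip2) then passes the signal to NF-kB, C/EBP factors and proteins that stabilise mRNA, so that target cells make IL-6, chemokines that draw in neutrophils and monocytes, and antimicrobial proteins. SHP2 is a tyrosine phosphatase that carries signals from cytokine and growth factor receptors to Ras and ERK; the E76K change keeps it active and drives myeloid expansion, and the LysM promoter restricts Cre to myeloid cells. In obese fat, macrophages accumulate and take up lipid, and GLP-1R agonists lower food intake and body weight.

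More genes were lower than higher when the antibody was added. Of the 17059 genes tested, 917 were higher with Combo than with the agonist alone (5.38%) and 2278 were lower (13.4%), together 3195 (18.7%), counting a gene as changed at a false discovery rate (FDR) under 0.05 with an absolute log2 fold change over 1 (edgeR's quasi-likelihood test, Benjamini-Hochberg adjustment over all genes). A gene that was not called may thus still differ by less than 2-fold. The median log2 fold change of all genes was -0.09. The 3 libraries of Combo lay wholly above or wholly below the 3 of GLP1 for 9203 genes (53.9%). Many of the changes concerned genes that were almost silent in the other group, since 803 of the 2278 lower genes had no count in any Combo library and 69 of the 917 higher genes had none in any GLP1 library. With genes limited to those with at least 10 counts in every ATM library, 1592 of 12064 were called, 732 higher and 860 lower. When the fold itself was tested against 2-fold (glmTreat), 1838 genes were called, and with no limit on the fold 6788 (39.8%). Of the called genes named below, 14 lost the call when 1 library was left out, having a fold near 2 or few counts: Batf3, Ccr6, Cd86, Ctla4, Cx3cr1, Cxcl9, Cyp11a1, Hp, Il17ra, Il17re, Lep, Mertk, Spry4 and Tnfrsf1b.

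**Figure D1:**
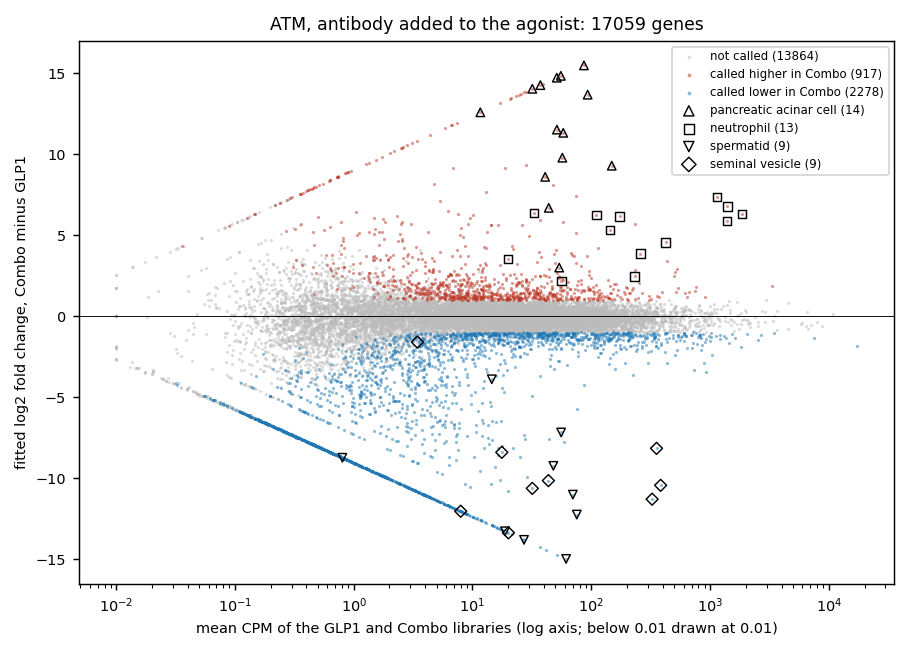
Fitted log2 fold change of Combo minus GLP1 (y axis) against the mean counts per 1000000 (CPM) of the 6 libraries (x axis, log scale) for 17059 genes in ATMs, with 917 genes called higher in red, 2278 called lower in blue and the rest in grey. Open symbols mark genes typical of pancreatic acinar cells and neutrophils, which lie above 0, and of spermatids and the seminal vesicle, which lie below it.

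Depth was similar, from 31854058 to 35092875 counts per library with Combo and from 25673711 to 39778889 with the agonist alone, and libraries of the same group differed by more than counting noise (chi-square per degree of freedom from 14.2 to 19.9 between pairs). Levels below are counts per 1000000 counts of the library (CPM), replicate 1 to 3, or mean ± SD (n = 3), and changes are log2 fold changes of Combo minus GLP1 ± SE. Among genes over 10 CPM, the fitted coefficient of variation within a group had a median of 12.9% in ATMs and 3.39% in BM. SEs and p-values cover the spread between these libraries, and that between mice only if each library is a separate mouse. Genes linked to sex separated the groups. Xist, the RNA that silences the second X chromosome of female cells, was at 32.6, 38.1 and 31.4 CPM with Combo and at 0 in all 3 libraries with the agonist alone, while Ddx3y, a helicase encoded on the Y chromosome, was at 8.04, 6.09 and 11.7 CPM with Combo and 155, 173 and 164 CPM with the agonist alone. All 4 Y-linked genes of the list were called lower with Combo, but none was at 0 in all Combo libraries. The labels say that both sexes were used and that sex was matched between groups. Without the agonist the split ran the other way, with Xist at a mean of 37.7 ± 8.1 CPM in Vehicle and 0.407 ± 0.706 CPM (SD, n = 3) in IL17Ab. The sex of the mice that these libraries hold and the antibody cannot be told apart here, for any gene.

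RNA of tissues that lie next to visceral fat differed between the groups. All 14 pancreatic acinar genes, which encode digestive enzymes, were higher with Combo, and their summed level was 1615 to 1642 CPM with Combo against 10.2 to 17.8 CPM with the agonist alone; 6 of them, among which Cela2a, Pnlip and Cpa1, had no count in any GLP1 library. All 9 spermatid genes and 8 of the 9 seminal vesicle genes were lower with Combo, with summed levels of 2.29 to 3.31 CPM with Combo against 731 to 756 CPM with the agonist alone for spermatids and 4.49 to 5.93 CPM with Combo against 2318 to 2409 CPM with the agonist alone for the seminal vesicle. Beside 5.38% higher and 13.4% lower over all genes, 3 of the 7 epididymal genes were lower. Of the 4 ovary genes 1 was lower, Cyp11a1, the enzyme that starts steroid synthesis (-1.12 ± 0.18 on the log2 scale, SE). Their part in the results below was not tested, and since all 3 libraries of each group show the same state, no library could be set aside.

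**Figure D2:**
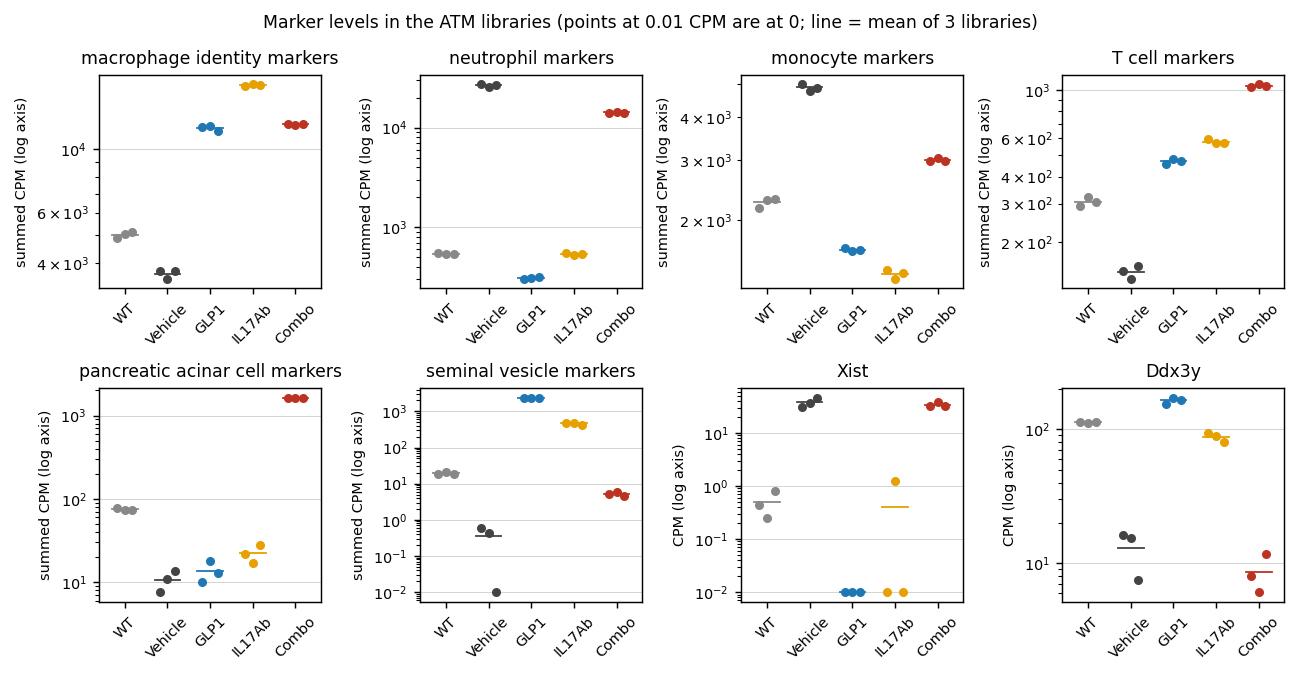
Levels of marker groups (summed CPM) and of the sex-linked genes Xist and Ddx3y (CPM) in each of the 15 ATM libraries, on log axes, with points drawn at 0.01 where the level was 0 and a line at the mean of 3 libraries. Combo and GLP1 are close in the summed level of macrophage markers, and Combo is higher for neutrophil, monocyte, T cell and acinar markers and lower for seminal vesicle markers and Ddx3y.

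The macrophage markers themselves summed to similar levels, although most single genes separated the groups. Adgre1, which encodes F4/80, the protein used for the sort, was at 405, 401 and 395 CPM with Combo and 375, 392 and 403 CPM with the agonist alone, and Vehicle lay at 42.3 ± 11.2 CPM (SD, n = 3). Csf1r, the receptor for the growth factor on which macrophages depend, was at 665, 670.0 and 687 CPM with Combo and 796, 758 and 800.3 CPM with the agonist alone. Of 12 macrophage identity genes, 1 was higher and 1 lower, beside 18.7% called over all genes, with a median of -0.12 on the log2 scale. Their summed level was 12179 to 12269.9 CPM with Combo against 11566 to 12076 CPM with the agonist alone. The higher gene was Itgam, which encodes the integrin CD11b shared by monocytes, macrophages and neutrophils (1.24 ± 0.07), and the lower was Mertk, a receptor for the uptake of dying cells (-1.08 ± 0.15). For 4 of the 12 every Combo library lay above every GLP1 library and for 6 below, beside 53.9% of all genes separated in either direction. With no limit on the fold 9 of the 12 passed, beside 39.8% of all genes. None of the 11 genes of tissue-resident macrophages was called (18.7% over all genes), with Folr2, a folate receptor, at 150.4 ± 1.08 against 242 ± 4.19 CPM and Lyve1, a hyaluronan receptor, at 21 ± 5.8 against 34.7 ± 4.5 CPM. Yet 7 of the 11 had all Combo libraries below all GLP1 libraries and 2 had all above, again beside 53.9% of all genes in either direction. With no limit on the fold 6 passed, and the median was -0.46. None of the 14 genes of lipid-associated macrophages was called either, and their median was -0.35. But 12 had all Combo libraries below all GLP1 libraries (53.9% of all genes in either direction). With no limit on the fold 13 passed (39.8% of all genes). Within that list Gpnmb, a membrane glycoprotein of lipid-laden macrophages, stood at 2639 ± 56.7 against 4743 ± 37.2 CPM, Apoe, the apolipoprotein that exports cholesterol, at 3295 ± 69 against 5811 ± 174 CPM, and Trem2, a lipid-sensing receptor, at 223 ± 1.41 against 315 ± 3.35 CPM. In a bulk sample, fewer cells of a kind and less RNA per cell cannot be told apart, here and in all that follows.

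Neutrophil genes rose, although the sort was on a macrophage protein. All 13 were higher with Combo, beside 5.38% of all genes. Their summed level was 14055 to 14370.5 CPM with Combo against 304 to 319 CPM with the agonist alone, with none of the 13 at 0 in either group. S100a8, a calcium-binding alarmin of neutrophils and monocytes, was at 3665, 3737 and 3598 CPM with Combo and 45.4, 46.1 and 46.8 CPM with the agonist alone. Ltf, which encodes the iron-binding granule protein lactoferrin, was at 2294, 2286 and 2282 CPM with Combo and 12, 15.7 and 14.1 CPM with the agonist alone. No library of 1 group overlapped the other for either gene, and the log2 fold changes were 6.31 ± 0.04 and 7.36 ± 0.09 (edgeR adjusted p = 1.39e-20 and 2.96e-17). The list holds genes of precursors as well as of mature cells, and both kinds were raised. Elane (6.38 ± 0.31) and Mpo (6.24 ± 0.33) encode enzymes of primary granules that are made in the marrow, Camp (6.16 ± 0.13), Ngp (6.79 ± 0.07) and Mmp8 (5.34 ± 0.29) encode later granule proteins, and Cxcr2 (3.53 ± 0.49) and Csf3r (2.16 ± 0.22) encode the receptors for neutrophil chemokines and for G-CSF. The summed neutrophil level of Vehicle was higher still, 25670.0 to 27216 CPM, and that of IL17Ab was 530.2 to 547 CPM.

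Monocyte genes rose with them. Of 10 measured, 7 were higher (5.38% over all genes) and none lower, with a median of 1.56 against -0.09 over all genes. Ly6c2, a surface protein of inflammatory monocytes, was at 249, 273 and 259 CPM with Combo and 67.3, 62.3 and 68.8 CPM with the agonist alone. Ccr2, the receptor through which CCL2 draws monocytes out of the marrow, was at 158, 134 and 153 CPM with Combo and 43.1, 41.4 and 51.9 CPM with the agonist alone. Both were separated by group in every library, with log2 fold changes of 1.98 ± 0.06 and 1.71 ± 0.12. Ms4a4c (1.86 ± 0.17), Cx3cr1, the fractalkine receptor (1.41 ± 0.53), and Hp, which encodes haptoglobin (1.01 ± 0.05), were also higher. Vcan, a matrix proteoglycan made by monocytes, was at 32.4 ± 7.35 against 46.6 ± 10.7 CPM and Plac8 at 86.7 ± 3.31 against 64 ± 3.9 CPM, and neither was called. The 3 erythroid genes rose as well, with Alas2, the first enzyme of haem synthesis in red cells, at 1.84 ± 0.03, and so did Ppbp, a platelet chemokine (5.95 ± 0.36), while the platelet gene Pf4 was at 129 ± 3.44 against 168 ± 9.41 CPM.

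Lymphocyte genes were raised in part. Over all genes 5.38% were higher and 13.4% lower, which stands beside the counts of this paragraph. Of 9 T cell genes 6 were higher and none lower (median 1.13). Their summed level was 1033 to 1064 CPM with Combo against 457 to 479.8 CPM with the agonist alone. Cd3g, a chain of the T cell receptor complex, was at 167, 164 and 157 CPM with Combo and 44.2, 48.4 and 44.4 CPM with the agonist alone. The log2 fold change of Cd3g was 1.83 ± 0.10 (edgeR adjusted p = 1.13e-09), and Cd4, the coreceptor of helper T cells, rose by 1.55 ± 0.15. Cd8a, a chain of the coreceptor of cytotoxic T cells, stood at 31.2 ± 1.41 against 35.6 ± 2.23 CPM and was not called. Of 11 genes of natural killer (NK) cells and innate lymphoid cells 2 were higher and 4 lower. Those lower were Gzmb (-1.14 ± 0.09) and Prf1 (-1.45 ± 0.20), which encode the killing proteins granzyme B and perforin, Eomes, a transcription factor of NK and memory T cells (-1.38 ± 0.22), and Il1rl1, the IL-33 receptor (-2.02 ± 0.16), and those higher were Gzma (1.77 ± 0.19) and Nkg7 (1.03 ± 0.07). Among 8 B and plasma cell genes, Jchain (1.16 ± 0.05) and Mzb1 (3.70 ± 0.21), both of antibody-secreting cells, were higher and the B cell genes Cd79a and Ms4a1 were not called, at 39.3 ± 1.83 against 29.3 ± 0.437 CPM and 17.6 ± 2.94 against 13.2 ± 1.66 CPM.

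Il17a encodes the protein that the antibody neutralises, and lies at chr1:20730905-20734496 on GRCm38. Its mRNA was scarce, at 3.54, 2.53 and 2.09 CPM with Combo and 0.210, 0.531 and 0.0263 CPM with the agonist alone, so every Combo library was above every GLP1 library, and the log2 fold change was 3.45 ± 0.72 (edgeR adjusted p = 0.0013). Vehicle lay higher, at 6.4, 5.17 and 8.39 CPM. An antibody binds the protein and not the mRNA, so these values do not measure neutralisation. Of 10 genes of Th17 and gamma delta T cells, 4 were higher, beside 5.38% of all genes. Among them were Il17a, Il22, a cytokine that acts on epithelia (3.14 ± 0.84), and Ccr6, a homing receptor of these cells (1.22 ± 0.47). Il17f, the partner of IL-17A in heterodimers, stood at 0.703, 2.12 and 0.629 CPM with Combo and 0.420, 0.0816 and 0.500 CPM with the agonist alone, which did not pass the test (adjusted p = 0.139, edgeR). Il1r1, the IL-1 receptor, which is also found on stromal cells, was the single lower member of that list, at 87.9, 55.8 and 62 CPM with Combo and 293, 274 and 288 CPM with the agonist alone (-2.05 ± 0.12).

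Of 9 IL-17 ligands and receptors 2 were higher and 1 lower, and of 18 genes of IL-17 signal transduction 1 was higher and 1 lower, beside 18.7% called over all genes. Il17ra, the chain common to several IL-17 receptors, was at 123, 101 and 131 CPM with Combo and 273, 229 and 243 CPM with the agonist alone, lower in all 3 Combo libraries than in any GLP1 library, with a log2 fold change of -1.07 ± 0.09 (edgeR adjusted p = 1.07e-07). It lay close to the limit of 2-fold, and was -0.999 without GLP1 replicate 1 and -0.972 without Combo replicate 2. Il17rc, the chain that pairs with it for IL-17A, was at 15.5 ± 1.28 against 19.6 ± 4.09 CPM and was not called, whereas Il17re, the chain for IL-17C, was higher (1.58 ± 0.56). With no limit on the fold 10 of the 18 signalling genes passed, beside 39.8% of all genes. Traf3ip2, which encodes the adaptor Act1, was at 22.8 ± 3.58 against 22.8 ± 3.03 CPM, Traf6, the ubiquitin ligase next in line, at 52.4 ± 1.58 against 78.7 ± 9.78 CPM, and Nfkbiz, which encodes the cofactor IkB-zeta, at 553 ± 6.47 against 425 ± 7.14 CPM. The signalling gene called higher was Ikbke, a kinase that phosphorylates Act1 (1.19 ± 0.15), and the lower was Cebpd, which encodes the transcription factor C/EBP-delta (-1.34 ± 0.08), beside Cebpb at 391 ± 53.5 against 209.8 ± 88 CPM.

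Genes that IL-17A is known to induce split into those that fell and those that rose. Of 21 measured, 7 were higher and 7 lower, beside 5.38% higher and 13.4% lower over all genes, with a median of -0.29. As examples of targets that fell (Il6 and Cxcl1) and of one that rose (Lcn2), the 250 bases before the start of transcription are shown for Il6 (chr5:30012864-30013113, plus strand), Cxcl1 (chr5:90890995-90891244, plus strand) and Lcn2 (chr2:32387740-32387989, minus strand), from RefSeq on GRCm38.p6, 5′ to 3′, with matches in capitals to an NF-kB type motif, GGNNTTTCC, or a C/EBP type motif, TTGNNCAA, on either strand.
Il6: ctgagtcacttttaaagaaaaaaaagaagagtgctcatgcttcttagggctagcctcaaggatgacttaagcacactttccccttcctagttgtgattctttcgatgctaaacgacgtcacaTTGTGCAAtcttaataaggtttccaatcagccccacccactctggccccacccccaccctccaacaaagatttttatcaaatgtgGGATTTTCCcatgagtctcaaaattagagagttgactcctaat
Cxcl1: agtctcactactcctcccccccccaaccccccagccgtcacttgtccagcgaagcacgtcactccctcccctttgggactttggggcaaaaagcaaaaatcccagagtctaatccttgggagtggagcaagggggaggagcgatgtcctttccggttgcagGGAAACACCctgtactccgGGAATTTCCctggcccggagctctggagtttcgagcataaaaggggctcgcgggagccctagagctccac
Lcn2: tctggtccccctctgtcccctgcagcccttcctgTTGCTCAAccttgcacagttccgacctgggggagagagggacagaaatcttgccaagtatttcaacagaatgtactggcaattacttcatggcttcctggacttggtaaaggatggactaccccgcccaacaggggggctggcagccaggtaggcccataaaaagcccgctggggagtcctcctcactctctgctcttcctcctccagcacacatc
The Il6 window holds 1 match to each motif, the Cxcl1 window 2 matches to the NF-kB type motif, and the Lcn2 window 1 match to the C/EBP type motif. The first motif is found in 4.93% and the second in 5.65% of 32851 mouse promoters of that length, and RefSeq promoters were at hand for 15 of the 21 targets, of which 5 hold the first motif and 4 the second. Among other targets that were called, Saa3, which rose, holds the first motif. Il1b, S100a8 and S100a9, which rose, and Mmp3, which fell, hold neither. A match is a description of letters and does not show that a factor binds there.

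Il6, the cytokine through which IL-17A extends inflammation, was at 36, 36.4 and 29 CPM with Combo and 414, 415 and 416 CPM with the agonist alone, with every Combo library far below every GLP1 library (-3.62 ± 0.09, edgeR adjusted p = 5.06e-14). Cxcl1, a neutrophil chemokine, was at 224, 215 and 197 CPM with Combo and 1515, 1567 and 1658 CPM with the agonist alone (-2.90 ± 0.06). Csf3, which encodes G-CSF, the growth factor that drives neutrophil production, was at 13, 17.5 and 10.7 CPM with Combo and 106, 108 and 118 CPM with the agonist alone (-3.01 ± 0.13). These 3 genes, which lie on the known route from IL-17A to neutrophils, were lower in the same libraries in which neutrophil genes were higher. Ccl2 and Ccl7, the monocyte chemokines, were lower too, with Ccl2 at 204, 211 and 183 CPM with Combo and 851, 877 and 866 CPM with the agonist alone (-2.12 ± 0.05) and Ccl7 at -2.19 ± 0.06. The other genes that fell were Mmp3, a matrix protease (-1.16 ± 0.06), and Fosl1, which encodes the AP-1 subunit FRA1 (-2.55 ± 0.14). Those that rose were Saa3, an acute-phase protein, at 808, 816 and 766 CPM with Combo and 80.9, 71 and 77.2 CPM with the agonist alone (3.38 ± 0.06), Il1b, which encodes IL-1-beta, at 338, 364 and 345 CPM with Combo and 108, 103 and 102 CPM with the agonist alone (1.74 ± 0.07), Cxcl5, a neutrophil chemokine (1.34 ± 0.27), and S100a8, S100a9, Lcn2 and Mmp9, 4 genes that are also in the neutrophil list. Lcn2, the iron-scavenging protein lipocalin 2, was at 818, 827 and 792 CPM with Combo and 32.2, 36.1 and 35.2 CPM with the agonist alone (4.56 ± 0.08). Cxcl2, Tnf, Ptgs2 and Socs3 were not called, at 433 ± 22.8 against 452 ± 32.7 CPM, 81.2 ± 5.24 against 89.9 ± 10.1 CPM, 109.9 ± 10.2 against 201 ± 7.44 CPM and 451 ± 17.1 against 812 ± 9.83 CPM.

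**Figure D3:**
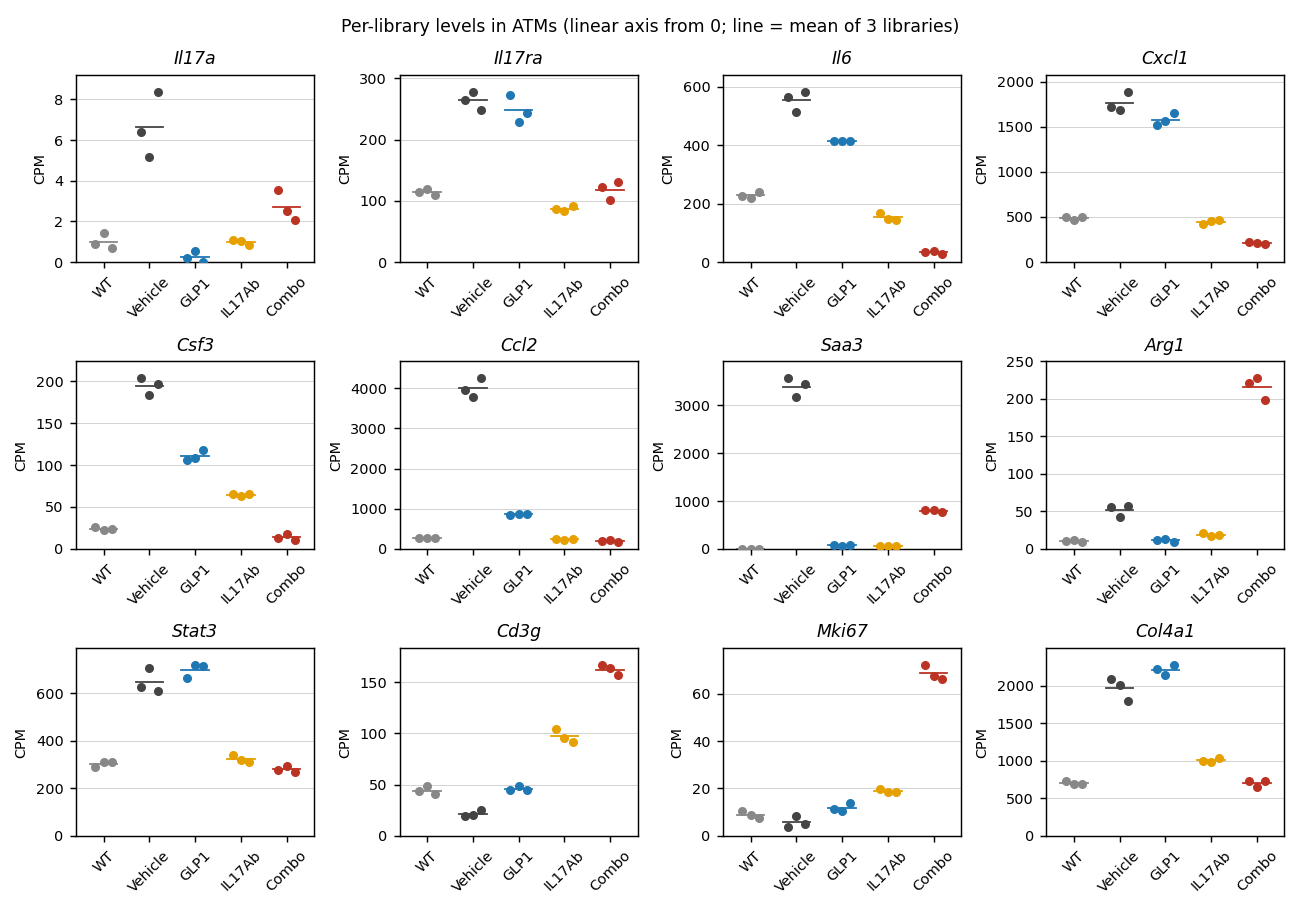
CPM (linear axes from 0) of 12 genes in each of the 15 ATM libraries, with a line at the mean of the 3 libraries of a group. Il6, Cxcl1, Csf3, Ccl2, Il17ra, Stat3 and Col4a1 are lower in every Combo than in every GLP1 library, and Il17a, Saa3, Arg1, Cd3g and Mki67 are higher.

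Of 14 genes of the NF-kB and TNF pathway none was called higher and 2 were called lower, beside 18.7% called over all genes. Their fold changes were mostly small and negative: 13 of the 14 were below 0, with a median of -0.47, 10 had every Combo library below every GLP1 library (53.9% of all genes were separated in either direction), and 10 passed with no limit on the fold (39.8% of all genes). Icam1, the adhesion molecule that holds leukocytes to endothelium, was at 298, 323 and 307 CPM with Combo and 877, 921 and 898 CPM with the agonist alone (-1.54 ± 0.04), and Tnfrsf1b, TNF receptor 2, was at -1.03 ± 0.05. Tnfaip3, an inhibitor that NF-kB itself induces, stood at 1134 ± 20.1 against 1262 ± 13.7 CPM, and Rela, the NF-kB subunit p65, at 152 ± 5.63 against 288 ± 19.2 CPM. In the list of 18 other chemokines and cytokines 3 were called higher and none lower, beside 18.7% called over all genes. The 3 were Il1a, the alarmin form of IL-1 (1.72 ± 0.26), Osm, which encodes oncostatin M (1.62 ± 0.11), and Cxcl9, a T cell chemokine induced by interferon gamma (1.05 ± 0.10). Yet 12 of the 18 were below 0, with a median of -0.18. For 9 of the 18 every Combo library lay below every GLP1 library and for 5 above, beside 53.9% of all genes in either direction. Of 14 chemokine receptors 7 were higher and 1 lower (median 1.29). Besides Ccr2, Cxcr2, Cx3cr1 and Ccr6, they were Ccr1 (1.35 ± 0.06) and the formyl peptide receptors Fpr1 (3.99 ± 0.21) and Fpr2 (4.24 ± 0.28), all of which neutrophils or monocytes carry. The lower gene was Ccr7, the receptor that guides dendritic cells to lymph nodes, at 112, 109 and 110.2 CPM with Combo and 274, 244 and 252 CPM with the agonist alone (-1.22 ± 0.08).

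Of 15 JAK-STAT genes, which act downstream of IL-6 and other cytokines, 2 were higher and 2 lower, beside 18.7% called over all genes, and 12 passed with no limit on the fold, beside 39.8%. Stat3, which IL-6 activates, was at 277, 295 and 267 CPM with Combo and 666, 717 and 713 CPM with the agonist alone, lower in every Combo library (-1.32 ± 0.06, edgeR adjusted p = 7.9e-11), and Stat4, which IL-12 activates, was at -1.43 ± 0.15. Jak3, the kinase of the common gamma chain receptors, was higher at 87.9, 92.3 and 73.5 CPM with Combo and 28, 34.7 and 22.4 CPM with the agonist alone (1.58 ± 0.15). Of 13 genes of SHP2 and Ras-ERK feedback none was higher and 2 lower, beside 18.7% called over all genes. The 2 were Myc, a growth-promoting transcription factor, at 191, 198 and 187 CPM with Combo and 478, 500.0 and 478 CPM with the agonist alone (-1.34 ± 0.06), and Spry4, an ERK-induced inhibitor of Ras signalling (-1.04 ± 0.15). Ptpn11, the gene that encodes SHP2, was at 66.3, 63.2 and 60.6 CPM with Combo and 76.6, 87.6 and 74.6 CPM with the agonist alone, and Dusp5, a phosphatase that ERK induces, at 203 ± 4.92 against 275 ± 5.61 CPM, and neither was called. Counts per gene do not separate the mutant from the wild-type Ptpn11 allele. Of 14 immediate early and stress genes 2 were lower (18.7% called over all genes), Fosb (-1.75 ± 0.04) and the heat shock gene Hspa1a (-1.03 ± 0.03), and Jun and Egr1 stood at 1724 ± 75.7 against 2025 ± 41.1 CPM and 2008 ± 45.3 against 3079 ± 30.7 CPM.

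Beside 18.7% called over all genes, 3 of 14 genes of alternative and 2 of 11 of classical activation were called, with medians of -0.12 and 0.09. Those called lay on both sides of the usual division. Arg1, the arginase of alternatively activated macrophages, was at 221, 227 and 199 CPM with Combo and 11.9, 13.2 and 9.6 CPM with the agonist alone, with no overlap (4.23 ± 0.16, edgeR adjusted p = 1.27e-11). Nos2, which makes nitric oxide in classically activated macrophages, was at 21.3, 17 and 24.7 CPM with Combo and 3.36, 3.14 and 2.34 CPM with the agonist alone (2.84 ± 0.36). Of 14 genes of alternative activation, Arg1 and Chil3, a chitinase-like protein that monocytes and neutrophils also make (2.89 ± 0.11), were higher and Retnla was lower (-1.12 ± 0.06), and Mrc1, the mannose receptor, was at 109 ± 8.05 against 127 ± 4.02 CPM. Of 11 genes of classical activation, Nos2 was higher and Cd86, a costimulatory ligand, lower (-1.08 ± 0.11). Among 9 MHC class II genes Ciita, the master regulator of the group, was higher at 23.3, 20.5 and 21.1 CPM with Combo and 2.67, 2.74 and 2.76 CPM with the agonist alone (2.99 ± 0.22), while the genes it controls did not reach 2-fold, with H2-Aa at 952 ± 16 against 829 ± 37.2 CPM and Cd74 at 4080.1 ± 29 against 3232 ± 111 CPM. Yet 8 of the 9, Ciita among them, had every Combo library above every GLP1 library (53.9% of all genes in either direction). With no limit on the fold 8 passed (39.8% of all genes), and the median of the list was 0.40. DESeq2, DESeq2's size factors and the fit of only the libraries compared each called 2 of the 9. Of 14 interferon-stimulated genes 3 were higher and 1 lower, with Oas2 at 2.27 ± 0.40 and Ifit1 at -1.24 ± 0.06. Of 12 checkpoint genes, Pdcd1, which encodes PD-1, was lower at 40.9, 49.8 and 48 CPM with Combo and 178, 186 and 173 CPM with the agonist alone (-1.95 ± 0.09), Cd86 was lower, and Ctla4 (1.07 ± 0.10) and Cd96 (2.31 ± 0.32), receptors of T and NK cells, were higher, while Cd274, which encodes the ligand PD-L1, was at 140.0 ± 20.01 against 149 ± 12.4 CPM.

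Most genes of cell division were higher. Of 10 mitosis genes 9 were higher and none lower (median 1.85), and of 12 DNA replication genes 9 were higher and none lower (median 1.30). Over all genes 5.38% were higher. Mki67, a protein of dividing cells, was at 72, 67.6 and 66.2 CPM with Combo and 11.2, 10.5 and 13.9 CPM with the agonist alone. Rrm2, which makes deoxynucleotides, was at 98.6, 96.8 and 86.9 CPM with Combo and 22.5, 17.6 and 15.4 CPM with the agonist alone. The 2 genes did not overlap between groups and had log2 fold changes of 2.53 ± 0.23 and 2.35 ± 0.17 (edgeR adjusted p = 2.58e-07 and 2.91e-08). Aurkb (2.58 ± 0.46) and Top2a (2.38 ± 0.14), needed to part chromosomes, and Mcm5, a subunit of the replicative helicase (1.94 ± 0.11), were among the others, and Pcna, the clamp that holds DNA polymerase, was not called at 136 ± 4.85 against 124 ± 3.17 CPM. Which cells divided cannot be read from sorted bulk RNA, and the neutrophil, monocyte and T cell genes rose in the same libraries.

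Most genes of lipid and sugar metabolism differed by less than 2-fold. Beside 18.7% called over all genes, none of 16 genes of fatty acid and cholesterol synthesis was called, with Fasn at 49 ± 8.33 against 69.1 ± 10.4 CPM and Scd1, the desaturase that makes monounsaturated fatty acids, at 138 ± 12.4 against 238 ± 15.7 CPM. Of 13 genes of fatty acid oxidation 1 was lower and none higher, and Hadhb, a subunit of the mitochondrial enzyme of beta-oxidation, was at 141 ± 5.14 against 182 ± 18.4 CPM. Of 16 glycolysis genes Hk2, an inducible hexokinase, was lower at 40.6, 39.7 and 43.3 CPM with Combo and 207, 188 and 211 CPM with the agonist alone (-2.29 ± 0.10), as was Pdk4, a kinase that inhibits pyruvate dehydrogenase (-1.70 ± 0.15), and Pkm and Ldha stood at 1701 ± 47 against 1055 ± 33 CPM and 1427 ± 23.3 against 1036 ± 38.2 CPM. In that list 9 genes had every Combo library above every GLP1 library and 4 had every one below, and 12 of the 16 passed with no limit on the fold. Of 14 lysosomal genes 1 was called lower, the cholesterol transporter Npc1 (-1.12 ± 0.14). All 14 had a negative fold change, with a median of -0.45, and 12 lay below in every Combo library and 12 passed with no limit on the fold. For the glycolysis and lysosome counts, 53.9% of all genes were separated in either direction and 39.8% passed with no limit on the fold. In the incretin list, none of 5 genes passed, and Dpp4, the enzyme that degrades GLP-1, was at 62.7 ± 16.4 against 79.5 ± 10.8 CPM. Glp1r is not among the genes of the ATM counts, so it was not analysed here.

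Part of the matrix and stromal genes were lower with Combo. Of 12 collagen genes none was higher and 6 were lower (median -0.97), and of 10 genes of fibroblasts and adipose progenitors 4 were lower and none higher, with a summed level of 13596 to 13906 CPM with Combo against 24606 to 25112 CPM with the agonist alone. Col4a1, a chain of the basement membrane collagen, was at 727, 644 and 724 CPM with Combo and 2228, 2143 and 2271 CPM with the agonist alone, below in every library (-1.67 ± 0.06, edgeR adjusted p = 3.1e-12). Dcn, a proteoglycan of fibroblasts, was at 4219, 4324 and 4277 CPM with Combo and 10677, 10900.4 and 10556 CPM with the agonist alone (-1.33 ± 0.03), whereas the fibrillar collagens Col1a1 and Col3a1 stood at 1839.5 ± 58.8 against 2507 ± 55.5 CPM and 4935 ± 132 against 6778 ± 199 CPM and were not called. Of 11 matrix proteases and inhibitors 5 were lower, with Mmp2, which cleaves type IV collagen, at 495, 510.0 and 516 CPM with Combo and 1529, 1469 and 1474 CPM with the agonist alone (-1.56 ± 0.05) and Timp3, an inhibitor, at -1.27 ± 0.05. The 2 higher ones, Mmp8 and Mmp9, are in the neutrophil list. Of 10 complement genes 2 were lower and none higher, beside 18.7% called over all genes, with C4b at -1.23 ± 0.06. Fibroblast genes were thus present in the sorted material of both groups, and their part in the collagen values was not tested. Of 10 adipocyte genes 4 were higher, with Lep, which Ob/Ob mice transcribe in a mutated form, at 29.3 ± 5.37 against 14.4 ± 2.29 CPM (1.03 ± 0.32), and of 10 genes of mast cells, basophils and eosinophils 4 were lower, such as Kit (-1.16 ± 0.13), and 2 higher, such as Prg2, a granule protein of eosinophils (2.61 ± 0.25). Epx, the eosinophil peroxidase, had no count in any GLP1 library and was at 3.64, 5.14 and 6.37 CPM with Combo, at least 52-fold higher against a floor of 3 counts per library. Of 9 endothelial genes 1 was lower, Cldn5, a tight junction protein (-1.23 ± 0.07), of 7 mesothelial genes 1, Wt1 (-1.21 ± 0.22), and of 6 smooth muscle genes none. Of 10 dendritic cell genes Batf3 was higher (1.15 ± 0.37) and Ccr7 lower. These counts too stand beside 18.7% called over all genes.

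**Figure D4:**
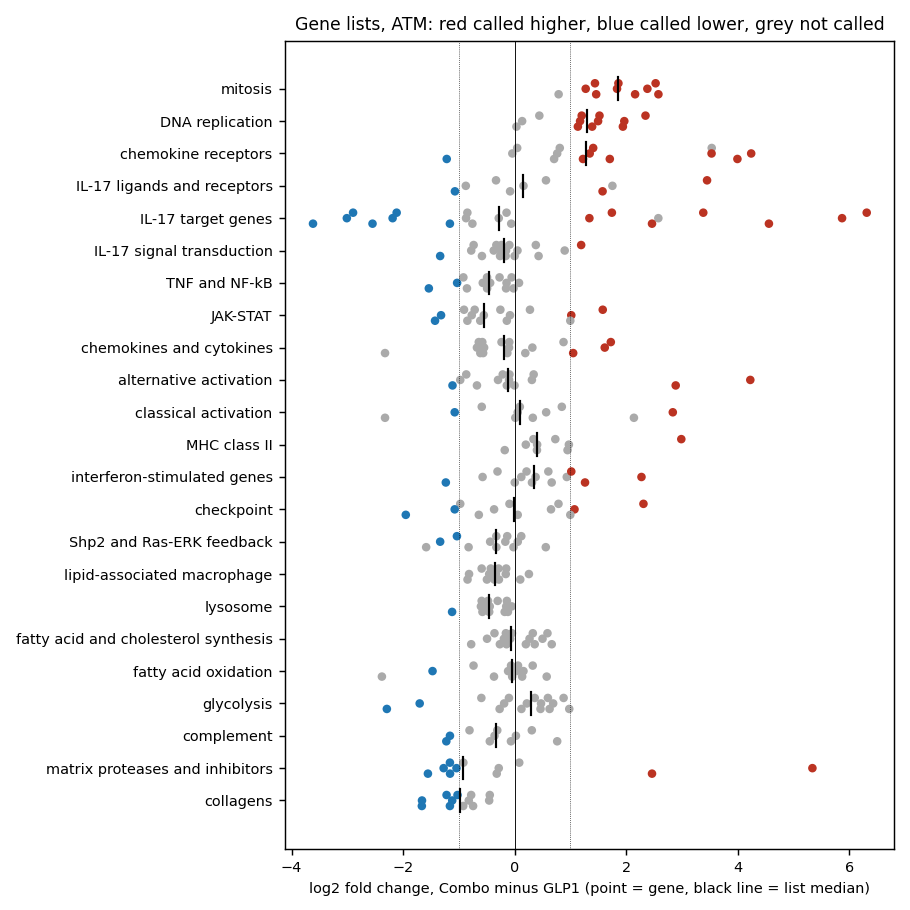
Log2 fold change of Combo minus GLP1 in ATMs (x axis) for the members of 23 gene lists (rows), with genes called higher in red, called lower in blue and not called in grey, a black line at the median of each list and dotted lines at -1 and 1. Mitosis and DNA replication lie mostly to the right, collagens mostly to the left, and the IL-17 target genes on both sides.

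By size of change alone, the extremes belonged to tissues other than fat. Of the 12 genes that rose most, 9 encode proteins of the exocrine pancreas, namely Cela2a, Cela3b, Pnlip, Try4, Cpa1, Sycn, Gp2, Cel and Reg2, and the others were Sprr2d, a cornified envelope protein of epithelia, Dmbt1, an epithelial scavenger receptor, and Itgb2l, which encodes pactolus, an integrin-like protein of neutrophils. Cela2a was at 177, 182 and 162 CPM with Combo and at 0 in all GLP1 libraries, at least 1789-fold higher against a floor of 3 counts per library, with 17.7% of its exon bases shared with Casp9 and Ctrc. Itgb2l was at 53.4, 46.7 and 52.9 CPM against 0, at least 525-fold higher. Of the 12 genes that fell most, Akap4, Smcp, Tnp1, Tuba3a, Tuba3b, Mael, Spz1, Actrt2 and Pabpc2 are genes of germ cells or sperm, Svs3a is a gene of the seminal vesicle, and Atp8b3 and Spata20 are expressed in testis. Akap4, the scaffold of the sperm tail, was at 122, 122 and 125 CPM with the agonist alone and at 0 in all Combo libraries, at least 1502-fold lower. Tuba3a and Tuba3b, and Try4 and Try5, are near-identical copies. The authors counted reads that mapped to 1 place, so reads common to both copies were left out and the values of each are uncertain.

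Between the groups with and without the antibody but no agonist, many of these genes differed in the other direction. In IL17Ab against Vehicle 6051 of 17059 genes were called (35.5%), 3821 higher and 2230 lower. The counts by direction below stand beside these. A test of the difference between the antibody effects with and without the agonist called 6122 genes (35.9%), among them 2467 of the 3195 above. That test contains the Combo minus GLP1 difference by which the 3195 were picked, so this overlap is not separate evidence. Of the 917 genes higher with Combo than with the agonist alone, 334 were lower and 212 higher in IL17Ab than in Vehicle. Of the 2278 lower with Combo, 1386 were higher and 247 lower in IL17Ab. The shares in the same direction, 212 of 917 and 247 of 2278, were near those of all genes. Markers of the male reproductive tract and of neutrophils were part of this reversal, but the macrophage identity genes as a set were not. With the antibody alone all 9 spermatid genes, all 9 seminal vesicle genes and 6 of the 7 epididymal genes were higher. Their sums were 3.01 to 4.07 CPM in Vehicle and 935 to 998 CPM in IL17Ab for spermatids, and 0 to 0.604 against 432 to 477 CPM for the seminal vesicle. The sum of the macrophage identity genes, close in Combo and GLP1, was 3515 to 3752 CPM in Vehicle and 16712 to 16921 CPM in IL17Ab, with 9 of 12 higher and 2 lower, and the neutrophil genes were lower for 12 of 13. The acinar genes, at 7.61 to 13.7 CPM in Vehicle and 17.1 to 27.8 CPM in IL17Ab, were higher for 1 and lower for 1 of 14. The part of these markers in the reversed calls was not tested. S100a8 fell with the antibody alone, from 9931, 9249 and 9588 CPM in Vehicle to 108, 102 and 102 CPM in IL17Ab (-6.53 ± 0.04), against a rise on the agonist. Saa3 and Arg1 also fell with the antibody alone, at -5.92 ± 0.07 and -1.43 ± 0.15, and Il17a mRNA fell as well, at -2.76 ± 0.68. The differences between the effects with and without the agonist were 12.84 ± 0.06 for S100a8, 9.30 ± 0.10 for Saa3, 5.66 ± 0.22 for Arg1 and 6.21 ± 0.99 for Il17a (edgeR adjusted p = 6.35e-23, 9.2e-19, 4.34e-12 and 7.83e-05).

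Other genes fell in both settings. Il6 was at 566, 516 and 584 CPM in Vehicle and 167, 148 and 146 CPM in IL17Ab (-1.85 ± 0.08), a smaller fall than on the agonist, by a difference of -1.76 ± 0.11 (edgeR adjusted p = 1.96e-09). Csf3 behaved likewise, at -1.60 ± 0.12 with the antibody alone, and Cxcl1 was at -1.99 ± 0.06. Ccl2 went from 3959.7, 3792 and 4242 CPM in Vehicle to 242, 233 and 236 CPM in IL17Ab (-4.08 ± 0.06), a larger fall than on the agonist, by 1.96 ± 0.07. Il17ra was at -1.60 ± 0.09 and Col4a1 at -0.96 ± 0.06 with the antibody alone, the second of which is just under the limit of 2-fold. Cd3g, Mki67 and Ciita rose in both settings, at 2.16 ± 0.11, 1.75 ± 0.23 and 2.66 ± 0.22 with the antibody alone, and for Cd3g and Ciita the difference did not pass the test (adjusted p = 0.0659 and 0.402, edgeR). The 2 contrasts rest on separate groups of mice, and Xist was present in the Combo and in the Vehicle libraries, so that here too sex and treatment cannot be told apart.

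**Figure D5:**
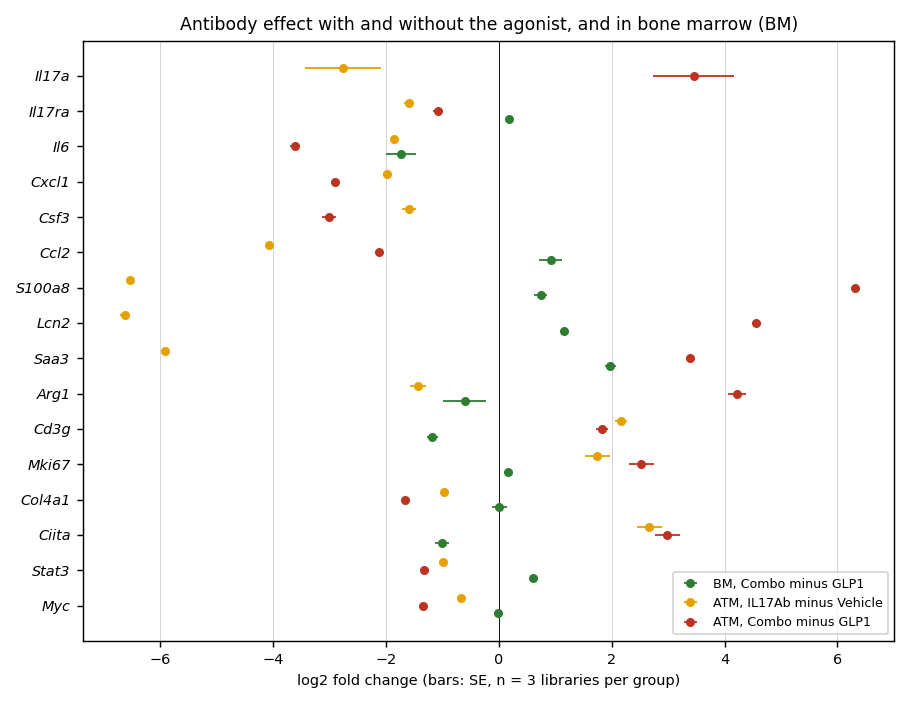
Log2 fold change with its SE for 16 genes under 3 contrasts, each of 3 against 3 libraries, namely the antibody alone in ATMs (yellow), the antibody added to the agonist in ATMs (red) and the antibody added to the agonist in BM (green, drawn where a BM group had a mean of at least 0.1 CPM). S100a8, Lcn2, Saa3, Arg1 and Il17a fall with the antibody alone and rise on the agonist in ATMs, while Il6, Cxcl1, Csf3, Ccl2 and Il17ra fall in both.

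In the BM of mice under the same treatments, 1757 of 13353 genes were called (13.2%), 613 higher and 1144 lower. The effect of adding the antibody differed between ATMs and BM for 2368 of the 13076 genes measured in both (18.1%). Sex separated the BM groups as well, with Xist at 104 ± 2.04 against 0.0622 ± 0.0869 CPM (SD, n = 3) and all 4 Y-linked genes of the list lower with Combo, so that sex and antibody cannot be told apart in BM either. Of the 917 genes higher with Combo in ATMs, 767 were in the BM table, where 124 were higher and 78 lower. Of the 2278 lower with Combo in ATMs, 907 were in it, where 176 were lower and 50 higher. Of the 13 neutrophil genes 5 were higher and none lower with Combo in BM too, with a summed level of 149892 to 151348 CPM against 86931 to 87722 CPM with the agonist alone. S100a8 went from 14568 ± 474 to 24355 ± 1761 CPM (SD, n = 3), a log2 fold change of 0.74 ± 0.12, which is under the limit of 2-fold, and Lcn2 rose by 1.15 ± 0.03. Stat3, lower in ATMs, was at 0.61 ± 0.02 in BM, also under the limit, and Il17ra stood at 411 ± 1.8 against 362 ± 6.54 CPM in BM. Cd3g and Ciita, higher in ATMs, were lower in BM, at -1.18 ± 0.10 and -1.01 ± 0.12. Mki67 was at 859 ± 9.21 against 771 ± 3.48 CPM in BM. Of the 9 T cell genes 8 were lower and none higher in BM, and the effect differed between the tissues for 9 of 9, and of the 10 mitosis genes none was called in BM and the effect differed for 9. The acinar genes summed to 19.8 to 20.2 CPM with Combo and 42.2 to 43.6 CPM with the agonist alone in BM, the reverse of their order in ATMs.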

How the data were processed

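The authors deposited raw read counts per gene, 1 table per tissue, from polyadenylated RNA with an RNA integrity number over 8 and unstranded paired-end sequencing. Per the labels and methods, reads were aligned to mm10 (GRCm38) with STAR 2.7.2a and counted on GENCODE M22 with featureCounts 2.0.1, with a mapping quality of at least 10; only uniquely mapped reads were used, and a read on several overlapping genes was counted for each, so overlapping genes share reads. Genes with few counts were already left out (smallest total 54 counts in the ATM table), by a rule not given in the sources used here. The labels name 1 batch.

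Counts were scaled by TMM and fitted with edgeR 4.0.16 (R 4.3.3, limma 3.58.1; quasi-likelihood, robust) over the 15 libraries of a tissue, or all 30 for the difference between tissues. filterByExpr removed no gene. CPM are counts per 1000000 counts of the effective library; the ± of a log2 fold change is its SE and that of a CPM the SD (n = 3). P-values are two-sided and adjusted by Benjamini-Hochberg over all genes. On simulated counts the main comparison recovered 134 of 200 changed genes with 1 other call. The simulation used the fitted spread, changed as many genes up as down and left all others equal between groups. It therefore does not cover the uneven changes and silent genes of these data. DESeq2 1.42.0, which the authors used, was an alternative. For a gene without a count in any library of a group, the fold is a bound against 3 counts per library. Intervals and bounds cover counting error only. Positions are from GENCODE M21 (16402 genes matched).

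Libraries were grouped by their titles. The members and the 48 gene lists (516 genes, 488 tested) were chosen with earlier results of these data known. Named genes are the 12 called genes with the largest log2 fold change each way (mean of at least 10 counts, no overlap of groups, gene models without a name left out, 2 among those lower), and called members of the lists. Members that were not called were chosen for their known role, after their values were seen. Some members of the lists are not reported here by name. Same-numbered Combo and GLP1 libraries did not deviate together (correlations from -0.01 to 0.02).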

Additional observations from a re-analysis of the deposited data

Results flagged for a closer look

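A test of the difference between 2 groups' effects picked out these results. The antibody effect with the agonist differed from that without it for 6122 genes, and the antibody effect on the agonist differed between ATMs and BM for 2368 genes. Among the genes plotted for 3 contrasts, the effect with the agonist minus that without it, on the log2 scale, was above 0 at 6.21 for Il17a, 1.96 for Ccl2, 12.84 for S100a8, 11.19 for Lcn2, 9.30 for Saa3 and 5.66 for Arg1, and below 0 at -1.76 for Il6 and -1.41 for Csf3. The effect in ATMs minus that in BM was above 0 at 5.62 for S100a8, 3.46 for Lcn2, 1.45 for Saa3, 4.88 for Arg1, 3.05 for Cd3g, 2.41 for Mki67 and 4.04 for Ciita, and below 0 at -1.21 for Il17ra, -1.84 for Il6, -2.99 for Ccl2, -1.63 for Col4a1, -1.89 for Stat3 and -1.27 for Myc. In ATMs Xist was present in every Combo and Vehicle library. All 9 spermatid and 8 of 9 seminal vesicle genes were lower with Combo than with the agonist alone, and all 9 of each were higher in IL17Ab than in Vehicle. All 14 acinar genes were higher with Combo, whereas 1 was higher and 1 lower in IL17Ab. In BM the sex-linked genes separated Combo from GLP1 in the same direction as in ATMs. Their part in these differences was not tested.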

How the results depend on the processing

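More genes were lower than higher with Combo under all alternatives run. The total of 3195 genes was 3157 with DESeq2's size factors, 3437 with DESeq2, 3057 with the replicate number as a block (replicate block; the numbers do not pair these libraries), 3027 with only the 6 libraries compared, and 2950 to 2997 when 1 library was left out. It moved by more than 1.5 times with no fold limit (6788, 2592 higher and 4196 lower), with at least 10 counts in every library (1592, with 860 lower) and with glmTreat (1838, 413 higher and 1425 lower). For the antibody alone the count was 9914 with no fold limit and 3724 with at least 10 counts, for the difference between the effects with and without the agonist it was 3887 with at least 10 counts, for BM it was 9529 with no fold limit and 737 with glmTreat, and for ATMs minus BM it was 5931 and 1036. The share of higher genes among those called was 28.7% and became 46.0% with at least 10 counts in every library. In BM the replicate block gave 1755 genes.

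Of 100 called genes named here, all that could be fitted kept their direction. Leaving out 1 library ended the call of 14, each with a fold near 2 or few counts, of which the smallest change is given: Batf3 (0.98, adjusted p = 0.0784, without Combo replicate 3), Ccr6 (1.07, adjusted p = 0.148, without GLP1 replicate 3), Cd86 (-0.99, adjusted p = 1.49e-05, without Combo replicate 3), Ctla4 (0.99, adjusted p = 6.72e-06, without GLP1 replicate 3), Cx3cr1 (1.07, adjusted p = 0.162, without GLP1 replicate 3), Cxcl9 (0.99, adjusted p = 6.43e-06, without GLP1 replicate 1), Cyp11a1 (-0.99, adjusted p = 0.0011, without Combo replicate 3), Hp (0.99, adjusted p = 1.06e-08, without Combo replicate 2), Il17ra (-0.97, adjusted p = 3.38e-07, without Combo replicate 2), Il17re (1.29, adjusted p = 0.132, without GLP1 replicate 1), Lep (0.89, adjusted p = 0.0664, without Combo replicate 1), Mertk (-0.94, adjusted p = 0.000149, without Combo replicate 2), Spry4 (-0.91, adjusted p = 0.000271, without GLP1 replicate 1), Tnfrsf1b (-0.98, adjusted p = 1.55e-09, without Combo replicate 2). glmTreat ended 24, the replicate block 3 (Ccr6, Cx3cr1 and Il17re), DESeq2 3 (Cxcl5, Epx and Tnfrsf1b) and only the libraries compared 3 (Hspa1a, Spry4 and Tnfrsf1b). Traf3ip2, which did not pass, changed sign, to 0.031 with DESeq2's size factors, 0.0257 with at least 10 counts, 0.0304 with DESeq2, 0.0414 with only the libraries compared, and -0.138 to 0.108 when 1 library was left out. Of 288 counts of called list members with 1 library left out, 268 stayed within 1.5 times. Depth limits the scarce transcripts: Il17a had between 1 and 136 counts per library.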
